A study of Caenorhabditis elegans with 3 samples.

Results

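The transthyretin-like genes of Caenorhabditis elegans were taken as all features whose locus name in the deposited tables begins with ttr-, which gave 59 of 45343 features. FPKM, a count of fragments divided by transcript length and by library size, was listed for each of them in 3 libraries of messenger RNA from whole animals at the L4 larval stage. The groups were the wild type N2, the strain ZG24 with the ia03 allele of ahr-1 and the strain CZ2485 with the ju145 allele, each grown as a synchronized culture from eggs of hypochlorite-treated adults. ahr-1 encodes the worm aryl hydrocarbon receptor, and the study set each mutant singly against wild type. Each strain gave 1 library, so no value has a replicate error and no difference between strains was tested. In whole animals, fewer cells of a type and less RNA per cell cannot be told apart.

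Transthyretin itself is the vertebrate blood protein that carries thyroid hormone and retinol-binding protein. Nematodes have a separate, much expanded family of small proteins with a related fold, most of which carry a signal peptide and are secreted, and which are also found among the products that parasitic nematodes release into their hosts. Most C. elegans members have no assigned role. Exceptions are TTR-52, a secreted bridge between phosphatidylserine on dying cells and the engulfment receptor CED-1, TTR-11, which links phosphatidylserine on cut axons to the integrin INA-1 in axon regeneration, and TTR-33, which protects dopaminergic neurons from oxidative stress.

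The family is compact in the reference annotation. All 59 names matched it by sequence name, 58 as protein-coding genes and 1, ttr-4, as a pseudogene. The encoded proteins had a median length of 143 amino acids, against 329 for all 19454 coding genes matched, and 53 of 58 lay between 120 and 180. The shortest was TTR-57 with 89 amino acids and the longest TTR-14 with 406. The median number of exons was 3, against 5 for coding genes, and 13 members had only 2. Chromosome V held 22 members, or 37.3% of the family against 25.1% of coding features. Chromosome X held 12, III and IV 10 each, I 3 and II 2. The exons of 18 members overlap those of another gene in the reference, and no source used here says if reads were counted by strand, so the reads of those members are uncertain.

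Transthyretin-like transcripts were abundant in L4 animals of all 3 strains. In wild type 57 of 59 members had an FPKM of at least 1, in ia03 54 and in ju145 55, or 96.6%, 91.5% and 93.2%. The shares of the other coding genes were 70.8%, 71.0% and 70.1%. Among other coding genes with an exon length in the family's range they were 62.7%, 62.7% and 62.0%. Of the members above that floor, the median was 55.3 in N2, 52.2 in ia03 animals and 50.5 in ju145 animals. The other coding genes above it had medians of 18.9, 17.8 and 15.9. Those of them whose exon length lay in the range of the family, 364 to 1415 nt, had medians of 19.5, 17.9 and 16.4. An FPKM of at least 100 was reached by 31.6% of the measured members in wild type, against 12.9% of the other coding genes and 15.98% of those of like length. No test was made of this difference in level, because the genes of one library are not replicates.

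**Figure D1:**
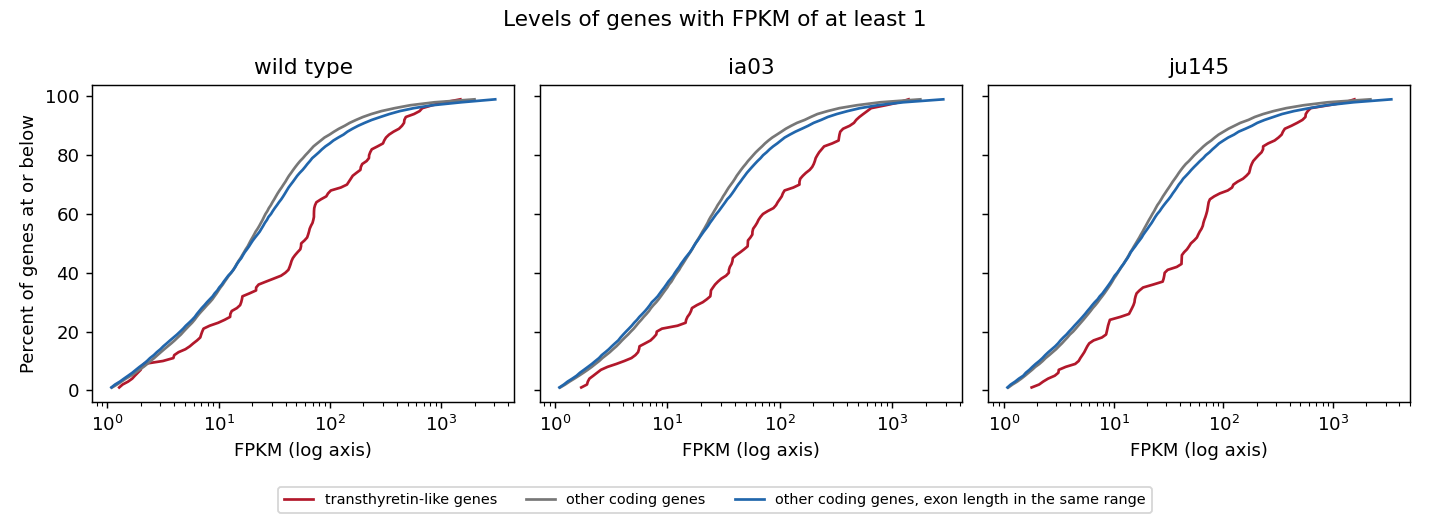
Cumulative percent of genes (y axis) at or below a given FPKM (x axis, log scale) in each library, for genes with an FPKM of at least 1. Red is the transthyretin-like genes, grey all other coding genes and blue those with an exon length in the same range. The red curve lies to the right over most of its course in each library, with a median of 55.3 against 18.9 for the other coding genes in wild type.

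A few members made up most of the family's transcripts. The summed FPKM of the 59 genes was 9548 in N2, 8847 in ia03 animals and 9043 in ju145 animals, which was 0.536%, 0.582% and 0.528% of the summed FPKM of each library. That sum over all features was 1.78e+06, 1.52e+06 and 1.71e+06. The larger share in ia03 thus goes with a smaller total, and the family sum itself was lowest there. The 3 most abundant members held 39.5% of the family sum in wild type and the 10 most abundant 70.6%. The shares were 39.6% and 71.1% in ia03, and 41.9% and 72.8% in ju145.

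Highest of all was ttr-15 on chromosome III, with 1947 FPKM in N2, 1646 in ia03 animals and 1809 in ju145 animals. It ranked 152nd of the 18698 features above 0 in wild type. ttr-16 on chromosome IV had 1136 in N2, 1196 in ia03 animals and 1342 in ju145 animals. In each library these were the 2 highest members, and the files give no role for either. The reference places exons of ttr-16 over exons of lin-3, the worm epidermal growth factor gene, which the tables list in the same locus at a wild type FPKM of 10.2.

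ttr-2 on chromosome III stood at 693 FPKM in N2, 569.8 in ia03 animals and 633.5 in ju145 animals. For ttr-51 on chromosome IV the values were 629, 490.4 and 555.4, and its exons overlap JC8.7. ttr-18 on chromosome II stood at 469.8, 664 and 563. Among these abundant genes, ttr-18 was the one higher than wild type in both mutants by the widest margin, while ttr-2 and ttr-51 were lowest in ia03.

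ttr-46 on chromosome V stood at 466 FPKM in N2, 450.3 in ia03 animals and 455 in ju145 animals. Its highest library exceeded its lowest by 1.04 times, the narrowest range in the family. ttr-45 on chromosome IV had 432, 351 and 356, and ttr-24 on chromosome V had 351, 335 and 339. All 8 of these most abundant members in wild type were also the 8 most abundant in ju145, and 7 of them were among the top 8 in ia03. Over all 59 members the order of levels correlated between libraries at a Spearman rho of 0.984 for wild type and ia03, 0.989 for wild type and ju145 and 0.993 for the mutants. These are correlations across genes, which are not independent replicates and share their length and sequence between libraries.

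**Figure D2:**
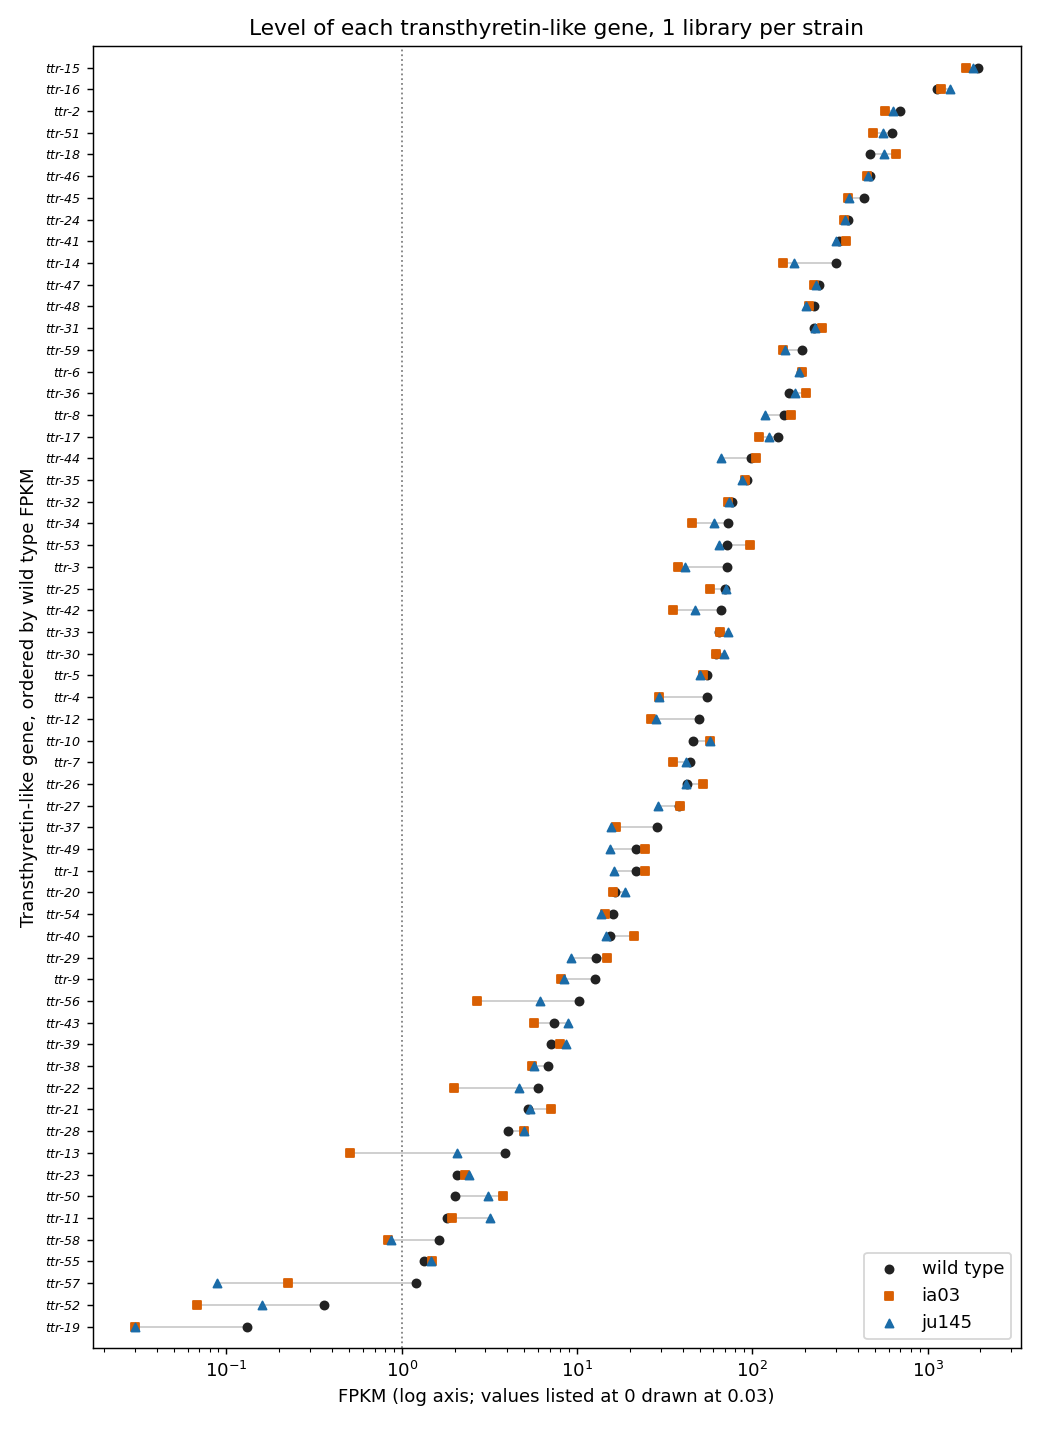
FPKM (x axis, log scale) of each of the 59 transthyretin-like genes, ordered by the wild type value, in the wild type, ia03 and ju145 libraries. Grey bars join the 3 values of a gene and the dotted line marks an FPKM of 1. Values of most genes lie close together, and the widest bars belong to genes of low level such as ttr-13, ttr-22, ttr-56 and ttr-57.

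The members with a known role were of middle or low level. ttr-33, the gene that protects dopaminergic neurons, stood at 64.6 FPKM in N2, 65.8 in ia03 animals and 72.5 in ju145 animals. Its exons overlap another coding gene in the reference, and its locus in the tables also holds mig-6, an extracellular matrix gene. ttr-11, the axon regeneration gene, had 1.80 in N2, 1.93 in ia03 animals and 3.18 in ju145 animals, so it was highest in ju145 on a low level. ttr-52, the engulfment gene, had 0.359, 0.0675 and 0.159. All 3 values of ttr-52 lay under the floor of FPKM 1, so no difference between strains is given for it. Depth in fragments is unknown for such low values. ttr-19 was listed at 0.132 in wild type and at 0 in both mutants, with a status of NOTEST in both of the authors' deposited tables.

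Many members lie beside each other in the genome. With neighbours counted when no more than 10 kb separates their loci in the tables, 30 of 59 members fell into 12 groups, of which 7 were pairs, 4 held 3 genes and 1 held 4. Neighbours often differed in level. Within a group the highest member exceeded the lowest in wild type by a median of 6.07 times, from 1.41 to 41.1 times, and by at least 4 times in 7 of 12 groups. The whole family ran from 0.132 to 1947 in wild type. No such range was computed for members that are not neighbours, so these values do not show a trait of neighbours. These groups were described after their values were seen.

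The group of 4 lies on chromosome III between 9916101 and 9930367 in the coordinates of the tables, for which no source used here names a genome build. In gene order, wild type FPKM was 54.9 for ttr-4, 72.0 for ttr-3, 693 for ttr-2 and 21.7 for ttr-1. In ia03 the values were 29.4, 37.9, 569.8 and 24.3, and in ju145 they were 29.3, 41.4, 633.5 and 16.3. ttr-4 and ttr-3 thus lay well below wild type in both mutants while ttr-2 lay nearer to it, and ttr-1 was above wild type in ia03 and below it in ju145. ttr-4 is a pseudogene in the reference and its exons overlap those of cbp-3, so a part of its reads may belong to that gene.

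The widest range of levels was found on the right of chromosome V, between 20603335 and 20608489. There ttr-11 had a wild type FPKM of 1.80, ttr-57 had 1.21 and ttr-12 had 49.6. ttr-12 was lower in both mutants, at 26.4 in ia03 and 28.1 in ju145. In the trio between 12903536 and 12906730 on the same chromosome, ttr-27 had 37.9 in N2, 38.4 in ia03 animals and 28.8 in ju145 animals, ttr-28 had 4.03, 5.01 and 4.99, and ttr-29 had 12.8, 14.8 and 9.25. The outer genes of that trio were lowest in ju145 and the middle one was not. The pair ttr-49 and ttr-40 lay closest in level, at 21.8 and 15.5 in wild type, 24.5 and 21.2 in ia03, and 15.4 and 14.6 in ju145.

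**Figure D3:**
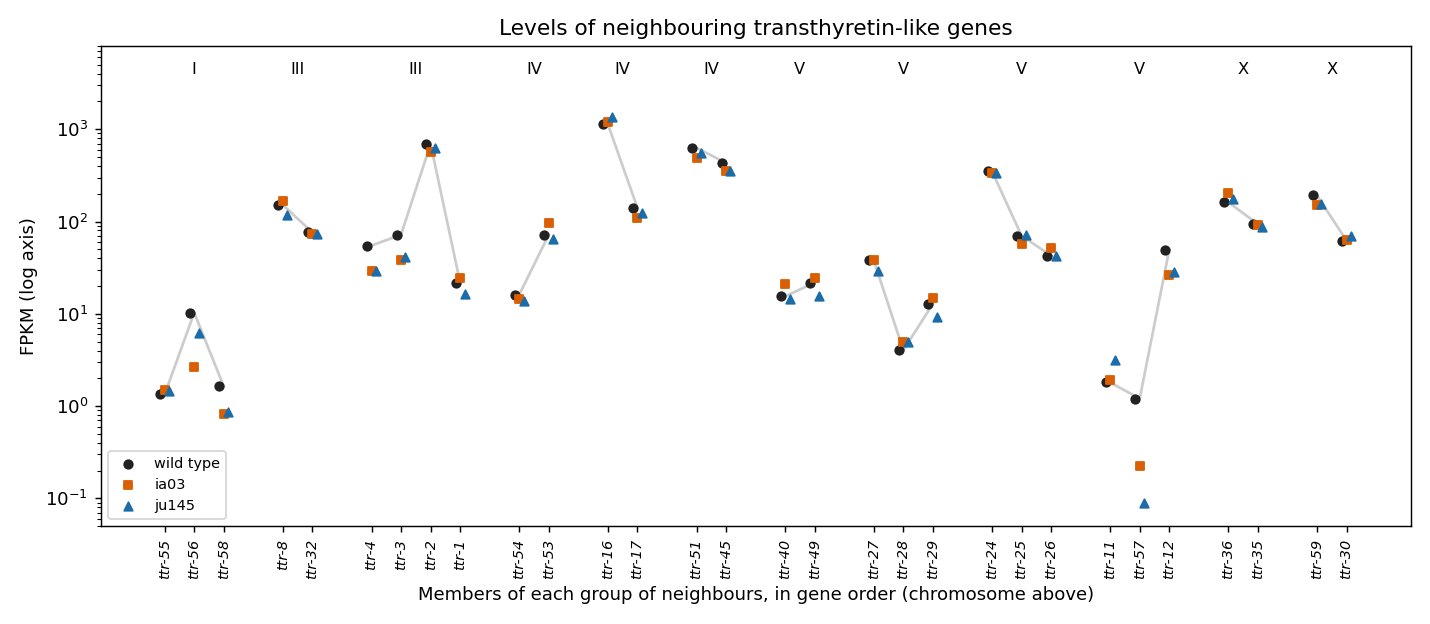
FPKM (y axis, log scale) of the 30 members in the 12 groups of neighbours, in gene order within each group, with the chromosome named above. Black circles are wild type, orange squares ia03 and blue triangles ju145, and grey lines join wild type values within a group. Levels differ between neighbours by up to 41.1 times, as between ttr-57 and ttr-12.

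The first comparison set ia03 against wild type, on the log2 ratio of FPKM + 1, among features of status OK that reached an FPKM of 1 in either library. Adding 1 makes the differences of genes at low levels look smaller than they are. Of the 57 members measured, 3 fell short of wild type by 2-fold or more and 0 exceeded it by as much. Over all 14783 measured features, 4.26% were lower by that measure and 2.52% higher, so the 5.26% of members that were lower is near the background. The median log2 ratio of the members was -0.07, against -0.02 for all measured features and -0.03 for those with an exon length in the family's range. A ratio within 1.5-fold was seen in 45 members, or 78.9%, against 80.1% of all measured features.

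The 3 members at least 2-fold lower in ia03 were all of low level. ttr-13 (V, 20635912 to 20636545) stood at 3.90 FPKM in N2, 0.509 in ia03 animals and 2.07 in ju145 animals, a log2 ratio of -1.70 for ia03 and of -0.68 for ju145. ttr-56 (I, 6146678 to 6147070) had 10.27 in N2, 2.67 in ia03 animals and 6.15 in ju145 animals, with log2 ratios of -1.62 and -0.66. ttr-22 (V, 12241411 to 12241893) had 5.96, 1.99 and 4.68, with log2 ratios of -1.22 and -0.29. In each of these genes wild type was highest, ia03 lowest and ju145 between them. With a pseudocount of 5 none of the 3 reached 2-fold.

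Short loci or shared exons touch these genes. The loci of ttr-56, 393 nt, and ttr-22, 483 nt, were the shortest of the 59 in the tables. At a given FPKM a short feature rests on fewer fragments. The exon lengths in the reference were 549 nt for ttr-56, 472 nt for ttr-22 and 742 nt for ttr-13. The median of the coding members was 572 nt, so by this measure ttr-13 was not short. The reference places exons of ttr-56 over those of its neighbour ttr-55, which stood at 1.34 FPKM in N2, 1.48 in ia03 animals and 1.47 in ju145 animals, and exons of ttr-13 over those of Y44A6B.3. Of the 15 members with a mean FPKM under 10, 3 were at least 2-fold lower in ia03. Of the 24 members between 10 and 100 and the 18 at 100 or above, 0 were. Over all measured features the shares 2-fold lower in ia03 were 4.47% under 10, 3.51% between 10 and 100 and 6.79% at 100 or above. The shares 2-fold higher in ia03 went the other way, at 4.23%, 1.51% and 0.781%. In ju145 the shares 2-fold lower were 4.48%, 2.97% and 2.80%. The part of level, length or overlap in these differences was not tested.

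At the wider limit of 1.5-fold, 11 of 57 members were lower in ia03 and 1 was higher, or 19.3% and 1.75%. The shares of all measured features were 13.2% and 6.68%. Those of measured features with an exon length in the family's range were 15.6% and 6.94%. These differences were not tested. Besides the 3 above, the lower members were ttr-14, ttr-3, ttr-12, ttr-42, ttr-4, ttr-57, ttr-37 and ttr-34, named here after their values were seen. They included genes of middle and high level. ttr-14 on chromosome X, the longest member, stood at 300.1 FPKM in N2, 150.3 in ia03 animals and 172 in ju145 animals, so its mutant values were 0.501 and 0.573 of wild type. Its exons overlap those of vap-2, a gene of the venom-allergen-like family.

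ttr-3 on chromosome III stood at 72.0 FPKM in N2, 37.9 in ia03 animals and 41.4 in ju145 animals. For ttr-42 on chromosome X the values were 66.3, 35.5 and 47.0, and for ttr-34 on the same chromosome 72.7, 45.3 and 60.0. The last pair stood nearer to wild type in ju145 than in ia03. The single member at least 1.5-fold higher in ia03 was ttr-50 on chromosome IV, at 2.01 in N2, 3.78 in ia03 animals and 3.12 in ju145 animals, and its exons overlap rbm-17.

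The second comparison set ju145 against wild type. The median log2 ratio of all 14686 measured features was -0.18 in ju145, so a member near wild type stands above most genes of that library. The median of the 57 measured members was -0.13, which is 0.06 above that of all features, and 40 of 57 members, or 70.2%, lay below wild type against 71.7% of all features. By 2-fold or more, 1 member was lower and 0 were higher, against 3.54% and 1.36% of all measured features. At 1.5-fold, 8 members, or 14.0%, were lower and 0 higher, against 13.8% and 2.94%. These shares of lower members are near the background.

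The member at least 2-fold lower in ju145 was ttr-57 (V, 20605074 to 20606300), the shortest protein of the family. Its FPKM was 1.21 in N2, 0.224 in ia03 animals and 0.0886 in ju145 animals, which gave log2 ratios of -0.85 for ia03 and of -1.02 for ju145. Both mutants lay far below wild type, but wild type itself was just above the floor, and the exons of ttr-57 overlap those of F46B3.23 in the reference. After rescaling by the upper quartile ttr-57 no longer reached 2-fold.

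Members 1.5-fold lower in ju145 were, besides ttr-57, ttr-14, ttr-3, ttr-4, ttr-12, ttr-37, ttr-13 and ttr-56. Both mutant comparisons use the same wild type library, so their values are only given side by side. ttr-37 on chromosome X stood at 28.6 FPKM in N2, 16.7 in ia03 animals and 15.6 in ju145 animals. The log2 ratios of ttr-4 were -0.88 in both mutants, those of ttr-14 were -0.99 (ia03) and -0.80 (ju145), and those of ttr-12 were -0.88 and -0.80. Of the 8, ttr-13 and ttr-56 had mutant values far apart, with log2 ratios of ia03 against ju145 of -1.02 and -0.96. For ttr-57 both mutant values lay under the floor, so this ratio is not given. In the rest of the 8 it lay between -0.19 and 0.09.

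**Figure D4:**
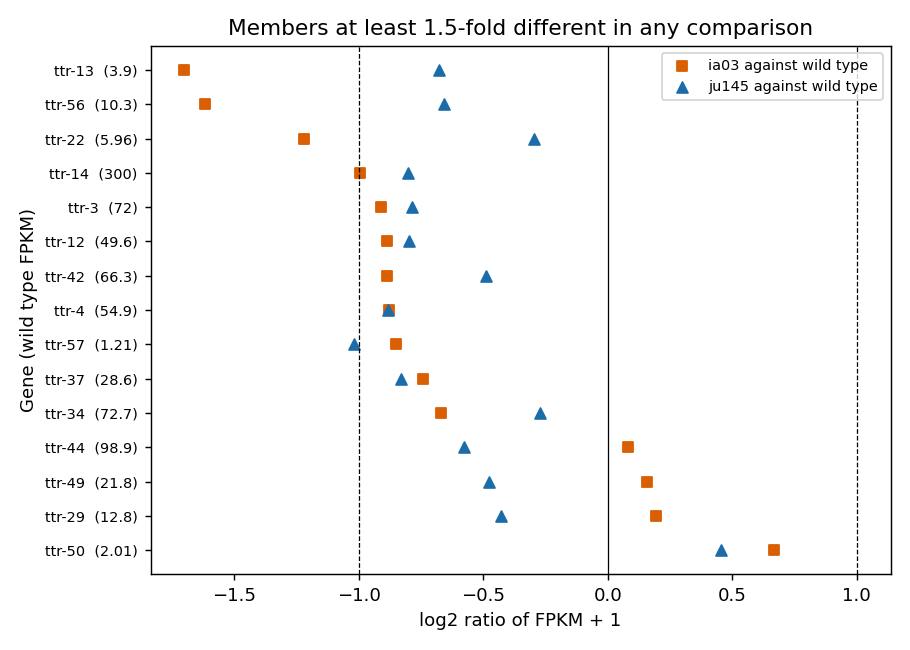
log2 ratio of FPKM + 1 (x axis) in ia03 (orange squares) and ju145 (blue triangles) against wild type for the 15 members at least 1.5-fold different in at least 1 of the 3 comparisons, with the wild type FPKM in parentheses. Dashed lines mark 2-fold. In ia03 ttr-13, ttr-56 and ttr-22 lie beyond the lower line, and in ju145 only ttr-57 does.

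Each of the authors' deposited tables compares 2 libraries. They gave a q-value under 0.05 to 5 of the 58 members with status OK in ia03 and to 4 of 58 in ju145. Lower in ia03 by that call were ttr-14 (q = 0.000296), ttr-3 (q = 0.00499), ttr-13 (q = 0.00499) and ttr-56 (q = 0.0343), per the authors' deposited table. The 1 member higher was ttr-18, with a q of 0.0148 in the authors' deposited table and an FPKM 1.41 times that of wild type. In the authors' deposited table for ju145 the 4 were lower, namely ttr-3 (q = 0.00171), ttr-14 (q = 0.00599), ttr-12 (q = 0.0481) and ttr-37 (q = 0.0484). Over all features with status OK, the authors' deposited tables called 3.41% lower and 1.96% higher in ia03, and 7.63% lower and 0.895% higher in ju145. A q-value from single libraries describes those libraries and not the strains.

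The third comparison set the mutants against each other. Of 55 members measured, 1 was lower in ia03 than in ju145 by 2-fold or more and 0 were higher, against 1.38% and 1.28% of 14384 features. It was ttr-13, at 0.509 in ia03 and 2.07 in ju145. At 1.5-fold, 3 members were lower, ttr-13, ttr-56 and ttr-22, against 3.41% of features, and 3 were higher, against 6.88%. The higher ones were ttr-44, ttr-49 and ttr-29, all on chromosome V, as are the lower ttr-13 and ttr-22. ttr-44 stood at 98.9 FPKM in N2, 105 in ia03 animals and 66.0 in ju145 animals, so ju145 was the library that stood apart, and its exons overlap R11G10.3.

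Medians in this comparison were lower over the members than over all features. The median log2 ratio of ia03 against ju145 was -0.02 over the members and 0.15 over all measured features, a difference of -0.18. Over measured features with an exon length in the family's range it was 0.11, nearer to that of the members. Members at 100 or above had a median of -0.02 and all features of that level one of -0.05. Those between 10 and 100 had 0.03 against 0.18, and those under 10 had -0.05 against 0.18. Beyond these counts and medians, no test of the family against the other features was made.

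**Figure D5:**
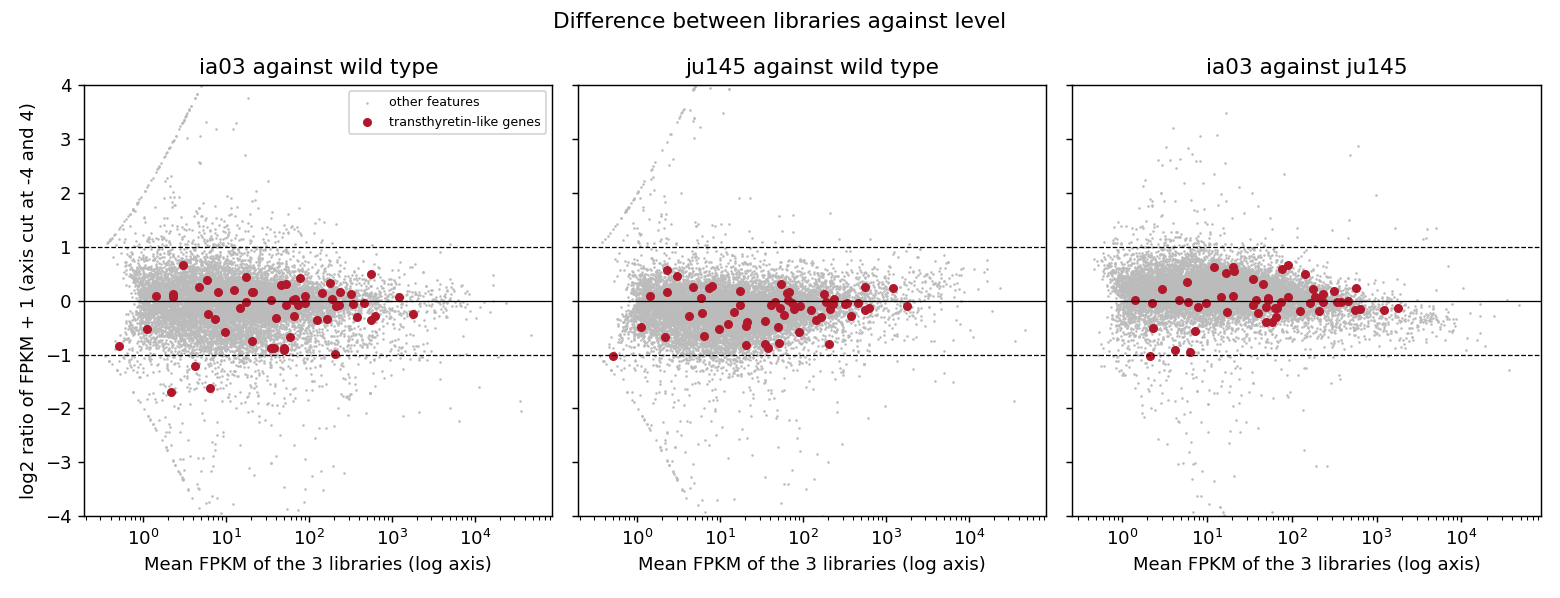
log2 ratio of FPKM + 1 (y axis, cut at -4 and 4) against the mean FPKM of the 3 libraries (x axis, log scale) in the 3 comparisons, with transthyretin-like genes in red and other measured features in grey. Dashed lines mark 2-fold. Members beyond these lines, 3 in ia03, 1 in ju145 and 1 between the mutants, all have a mean FPKM under 10.

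Genes that act with TTR-52, TTR-11 and TTR-33 differed between the libraries by less than 2-fold on the FPKM + 1 scale. Of 16 genes of phosphatidylserine exposure, engulfment and axon regeneration, 16 were measured and 0 differed by 2-fold in either mutant. Of all measured features, 4.26% were lower and 2.52% higher by 2-fold in ia03, and 3.54% and 1.36% in ju145. The 0 of 16 is thus near the background. Their median log2 ratio was 0.07 in ia03 and -0.25 in ju145, against -0.02 and -0.18 for all features. ced-1, the receptor that TTR-52 binds, stood at 17.4 FPKM in N2, 20.4 in ia03 animals and 18.4 in ju145 animals. ina-1, the integrin that TTR-11 binds, had 20.2, 25.8 and 18.5. nrf-5, a secreted lipid-binding protein that works with TTR-52, had 59.6, 47.5 and 44.3.

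The lowest ratio of the 16 in each mutant was that of psr-1, a phosphatidylserine receptor gene, at 51.7 in N2, 39.4 in ia03 animals and 35.8 in ju145 animals. The highest in each was that of svh-1, a growth factor gene of axon regeneration, at 0.705, 1.57 and 1.08. The log2 ratios of psr-1 were -0.38 and -0.52 and those of svh-1 were 0.59 and 0.29, on the FPKM + 1 scale. The fusogen gene eff-1, which acts with phosphatidylserine signals in axonal fusion, had 8.14, 13.3 and 9.51. Its status was not OK for ju145, so only the ia03 ratio of 0.65 on the log2 scale was measured.

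Of 5 genes of stress response, cell death and dopamine transport, 0 differed by 2-fold, which is near the background given above for all features. The lowest ratio to wild type in each mutant was that of skn-1, the oxidative stress regulator, with log2 ratios of -0.36 and -0.28. Its FPKM was 59.4 in N2, 46.1 in ia03 animals and 48.9 in ju145 animals. The highest ratio in ia03 was that of the caspase gene ced-3, at 10.2 in N2 and 10.97 in the ia03 library. The highest ratio in ju145 was that of the glutathione S-transferase gene gst-4, at 53.97 in wild type and 58.1 in ju145. R09H10.3, one of 2 worm genes for transthyretin-related hydroxyisourate hydrolases that carry no ttr name, had 165 in N2, 130.3 in ia03 animals and 167 in ju145 animals. The other, ZK697.8, was listed at 0 in all 3 libraries.

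Tissue markers moved in some lists beside these results. All 8 sperm markers lay below wild type in both mutants, with medians of -0.72 (ia03) and -0.44 (ju145), and 1 of them was 2-fold lower or more in ia03, and their summed FPKM was 4143 in N2, 2284 in ia03 animals and 3063 in ju145 animals. All 5 germline markers lay below wild type too, with medians of -0.30 and -0.12. The medians of all measured features were -0.02 and -0.18, so the germline median in ju145 lay above that of all features. The summed FPKM of 8 hypodermis markers was 2072, 1378 and 1902, mostly from the collagen gene col-19, which had 1806, 941 and 1572. Of the 7 measured, 5 lay above wild type in ia03 and 3 in ju145, with medians of 0.12 and -0.06. The cuticle collagen gene dpy-7 had 54.5 in N2, 161 in ia03 animals and 111 in ju145 animals, but its status was not OK. Of 5 amphid sheath glia markers, 3 lay below wild type in ia03 and 2 in ju145, with medians of -0.01 and 0.05, and ptr-10 was at least 2-fold higher in ia03. Their summed FPKM was 254, 318 and 468, mostly from T02B11.3, whose log2 ratios were 0.32 and 0.92. Lists for intestine, body wall muscle, pharynx, neurons, coelomocytes and the excretory cell had no measured member that differed by 2-fold. As few of all features did, at the shares given above, lists of this size can lack one. No marker of any list was at 0. The part of these tissues in the differences of transthyretin-like genes was not tested.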

How the data were processed

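Messenger RNA of 3 strains was made into libraries with an Illumina kit, 1 per strain, per the labels' protocols. The tools in the submitters' processing notes are Cuffdiff and Cufflinks (1.3.0), TopHat (1.3.1) and Bowtie2 (2.0.2), beside SAMtools (0.1.16) and FastQC, without their roles. Per the file headers, the authors deposited FPKM values with a status, q-value and p-value for each feature and mutant. The tables were joined by sequence name, and wild type values were the same in both. FPKM holds no counts, so depth is unknown.

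Members were features named ttr-. Log2 ratios of FPKM + 1 used features of status OK that reached an FPKM of 1 in either library compared, and at least 2-fold counted as a difference. The computation was run on simulated data with large planted changes and little noise. That checks the arithmetic only and not the noise of single libraries. Starts in the tables count from 0, as mitochondrial genes showed, and 1 was added. Biotypes, exons and protein lengths came from Ensembl release 115. The genes svh-1 and svh-2 were matched through the RefSeq table. Genes printed in full were the 8 highest in wild type, those at least 2-fold different and ttr-11, ttr-33 and ttr-52, with the extremes of the other lists. Further names, such as neighbours, members at 1.5-fold and ced-1, ina-1 and nrf-5, were chosen after values were seen. Protein identity and promoter motifs were not analysed here. Members, lists and tests were chosen with earlier results of these data known. Alternatives were pseudocounts, floors, scalings, status, fold limits and overlap. Python 3.11.15, numpy 2.4.6, pandas 2.3.3 and matplotlib 3.10.9 were used.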

Additional observations from a re-analysis of the deposited data

How the results depend on the processing

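With 1 library per strain, no replicate could be left out. No paired analysis was possible because each group holds 1 sample. For ia03 against wild type, the 3 members at least 2-fold different became 0 with a pseudocount of 5, 2 with a floor of FPKM 5, where ttr-13 was lost, 12 at 1.5-fold and 0 at 4-fold, and the median kept its direction under all alternatives. For ju145 against wild type, the 1 member became 0 with a pseudocount of 5, a floor of FPKM 5, the upper quartile or a limit of 4-fold, and 8 at 1.5-fold. Its median of -0.13 reversed to 0.077 with the median ratio and 0.094 with the upper quartile, since those scalings remove a shift of -0.21 and -0.22 of all features. Ratios in ju145 between that shift and 0 therefore change sign with the scaling. For ia03 against ju145, the 1 member became 3 with a pseudocount of 0.1, the median ratio or the upper quartile, 0 with a pseudocount of 5, a floor of FPKM 5 or a limit of 4-fold, and 6 at 1.5-fold. Its median of -0.02 became -0.19 with the median ratio, -0.17 with the upper quartile and 0.0038 among members whose locus overlaps no other feature, where the cause was not tested. The 31 alternative values that count as unchanged, the 2 members with that floor among them, moved by at most 1.5 times for a count and by less than 0.1 on the log2 scale for a median.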
